A study of Mus musculus with 14 samples.

Results

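The experiment is the deletion of Pkd1 in the ureteric bud of the mouse kidney, set against the controls of the same line. It was taken as the 6 libraries whose titles name Pkd1, 3 labelled Pkd1 KO and 3 controls, of 14 libraries in the series, and these 6 were compared across 12552 protein-coding genes out of 21936 in the table. The other 8 libraries, 3 controls and 5 knockouts of a Cep120 line, appear only where their values are set beside a result. All libraries came from embryonic kidneys at E13.5 that were dissociated with enzymes and sorted by flow cytometry for GFP.

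The sorted cells of all groups carried Hoxb7-Cre, a transgene that makes Cre recombinase and GFP in the ureteric bud lineage, so the deletion is limited to that lineage and GFP marks its cells. The knockout libraries have the genotype label Pkd1 KO and titles with "homo". The controls have the genotype label WT, but "het" in their titles, so the labels leave unsettled how many targeted alleles the controls have. The sources used here do not say which exons were deleted, in which strain, or whether a library came from 1 embryo, 1 litter or a pool. The p-values below therefore rest on the spread among libraries alone, and that spread may in part be technical. The question the Pkd1 line was meant to answer is not stated either, since the design text speaks only of Cep120.

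Pkd1 encodes polycystin-1, a large membrane receptor that works with the channel polycystin-2 at the primary cilium and at cell contacts. Loss of either protein from kidney tubule cells causes autosomal dominant polycystic kidney disease, in which tubules widen into cysts, and disturbed cAMP, mTOR, metabolic and polarity signalling has been described in cystic tissue. At this embryonic age the ureteric bud is a branching epithelial tree, with Ret-expressing tips that grow and divide and trunks that mature into collecting ducts.

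The 6 libraries held 11347657 to 27967596 counts, with the lowest total in knockout 1, and correlated with each other at 0.957 to 0.974 across genes (Pearson, log2 CPM). Values are given as CPM, read counts scaled by TMM to a common total over the tested protein-coding genes (counts per 1e6 reads), and in the order replicate 1, 2, 3. The sorted cells had ureteric bud markers in every library: Ret at 77.9 to 138 CPM, Gata3 at 386 to 473, Calb1 at 1500 to 1970 and Cdh1 at 141 to 176. Six2 of nephron progenitors did not exceed 1.55 CPM and Foxd1 of stroma 0.593, while Aqp2 of the mature collecting duct had no reads. Of 12 nephron progenitor markers 8 had a mean under 1 CPM, but Cited1 was at 20.9 to 39.8 and Tmem100 at 8.57 to 14. Of 15 stroma markers 4 had a mean under 1 CPM, and Col1a1 reached 15.9 and Acta2 13.3. The summed stroma markers ran from 4.02 CPM in knockout 3 to 105 in knockout 2. Red cell and platelet markers summed to 86.9 CPM in knockout 3 and 261 in control 1 but to 2753 to 4827 in the other 4 libraries. Control 2 alone had neural markers at 278 CPM, against 29.3 to 41.1 elsewhere. Xist, the RNA of the inactive X in females, stood at 6.84, 9.54 and 0 CPM in the knockouts and 52.5, 27.8 and 0.513 in the controls, so the mix of sexes was not the same in the groups.

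The targeted gene was lower in every knockout library than in any control, but by less than the test could establish. Pkd1 is ENSMUSG00000032855, on the plus strand of chromosome 17 from 24549834 to 24596508 (GRCm38). Its level was 2.73, 2.44 and 2.47 CPM in the knockouts and 4.68, 3.38 and 3.88 in the controls. These rest on few reads, 29.2, 63.0 and 35 against 98.2, 73.2 and 84.5. The log2 fold change was −0.65 (SE 0.352, 95% interval −1.41 to 0.11, n = 3 and 3), with an edgeR adjusted p of 0.901. Per length, the deposited TPM values were 0.380 ± 0.0993 in the knockouts and 0.803 ± 0.461 in the controls (SD, n = 3 each).

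The transcript records of Pkd1 overlapped between the groups. On the same CPM scale, which allows for the unequal depth of the libraries, the full-length coding transcript Pkd1-201 was at 0.155, 0.885 and 1.09 in the knockouts and 1.76, 0.876 and 1.65 in the controls, so knockouts 2 and 3 lay above control 2. Pkd1-202, an intron-retaining record, had 1.28, 0.677 and 0.705 CPM against 1.19, 1.48 and 0.792, with knockout 1 above controls 1 and 3. No record had more than 36.8 reads in any library. A deletion of a few exons leaves reads from the rest of a transcript, and which exons were targeted is not given, so these counts check the labels only in part. The polycystin gene is also followed tail to tail by Tsc2, whose annotated span shares 693 bases with it on the opposite strand. Because the library kit keeps no strand information, reads from those shared bases cannot be told apart.

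Across the protein-coding genes tested, a single gene was called. By the quasi-likelihood test of edgeR at an adjusted p under 0.05, 1 of 12552 genes was called, which is 0.00797%. It was Hmga1, lower in the knockouts. None was called higher. DESeq2 on the same counts called 13 genes, 6 of them higher, and Hmga1 was among the lower. At an unadjusted p under 0.05 there were 659 genes (5.25%), 286 higher (2.28%) and 373 lower (2.97%), and at a p under 0.01 there were 147 (1.17%). The groups did not overlap for 1432 genes (11.4%), 653 higher (5.2%) and 779 lower (6.21%). The middle 80% of genes lay between −0.37 and 0.32 in log2 fold change, and the median standard error was 0.192.

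**Figure D1:**
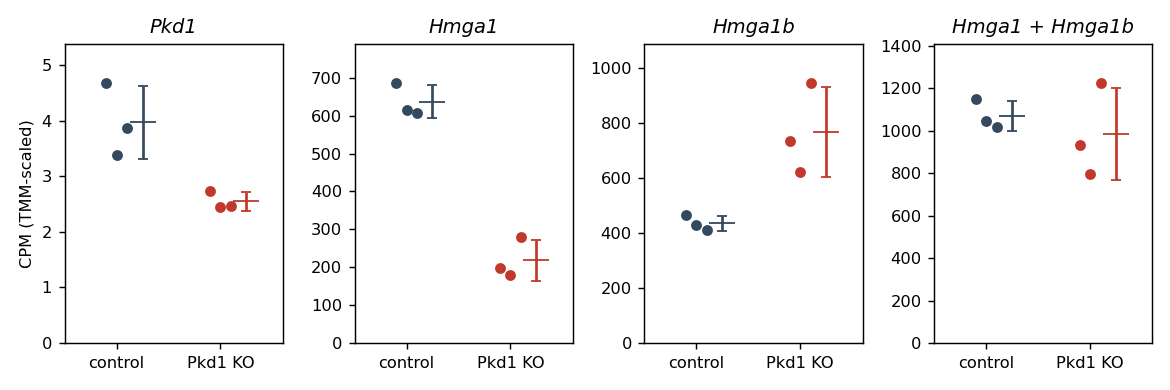
TMM-scaled CPM of Pkd1, Hmga1, Hmga1b and the sum of the Hmga1 pair in the 3 controls and 3 Pkd1 KO libraries. Points are libraries, and bars give the mean and SD (n = 3); Hmga1 and Hmga1b are separated in opposite directions (means 219 against 636 and 767 against 435 CPM), while the sums, 986 against 1071 CPM, overlap.

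Hmga1 encodes an architectural chromatin protein that bends AT-rich DNA by means of AT hooks and is abundant in growing embryonic cells. Mouse has a second locus, Hmga1b, a copy without introns on another chromosome. Their shared coding sequence is shown because it makes reads of these genes hard to assign. In the GENCODE M21 annotation the coding sequences of Hmga1-216 and Hmga1b-201 were identical over all 321 bases. The stretch from coding base 58 to 279 is given here from the Hmga1b locus, where it lies in the only exon (chr11:120762946-120763167, plus strand, GRCm38), with the 3 AT-hook cores in capitals.
AT-hook stretch of Hmga1 and Hmga1b: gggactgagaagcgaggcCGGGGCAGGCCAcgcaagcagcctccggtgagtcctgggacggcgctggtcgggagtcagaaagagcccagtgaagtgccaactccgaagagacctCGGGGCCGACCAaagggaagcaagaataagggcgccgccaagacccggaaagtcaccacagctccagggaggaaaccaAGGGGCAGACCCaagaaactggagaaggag
Over the whole transcripts, 1602 bases aligned without a gap and differed at 3, all in the 3′ UTR: A736G, A863G and G1325T, counted from 1 at the 5′ end of Hmga1-216, with the base of Hmga1-216 first.

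Hmga1 (ENSMUSG00000046711, chromosome 17, 27556497 to 27563674) fell in the knockouts. It had 198, 178 and 280 CPM against 687, 616 and 607 in the controls, so the lowest control was above the highest knockout by a wide margin. The log2 fold change was −1.54 (SE 0.148, n = 3 and 3), a 2.91-fold lower level, with an edgeR adjusted p of 0.0013. Without knockout 1 the adjusted p was 0.0618 and the call was lost, as it was with all 14 libraries in the fit or with the 6 controls of both lines pooled. Hmga1b (ENSMUSG00000078249, chromosome 11, 120762794 to 120764419) went the other way, with 735, 621 and 945 CPM against 464, 430 and 411. Its groups did not overlap either, at a log2 fold change of 0.82 (SE 0.133), but its edgeR adjusted p of 0.146 did not pass. It did pass in 4 of 16 alternatives, each time together with Hmga1. These were DESeq2, limma-voom with quality weights, no low-count filter, and the fit without knockout 2, which made 2 calls.

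Set together, the pair did not differ beyond the spread between libraries. The sum of both genes was 933, 799 and 1226 CPM in the knockouts and 1150, 1046 and 1018 in the controls, and the groups overlapped. Fitted as 1 gene with all the others, a step added after the values were seen, the sum had a log2 fold change of −0.12 (SE 0.130, 95% interval −0.40 to 0.16) and an edgeR adjusted p of 0.964. In that fit no gene was called, the lowest adjusted p was 0.439, and 657 genes had an unadjusted p under 0.05.

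What separated the groups was how the pair's reads were divided. Hmga1b took 78.8, 77.7 and 77.1% of them in the knockouts and 40.3, 41.1 and 40.4% in the controls. The means were 77.9% ± 0.834 and 40.6% ± 0.451 (SD, n = 3 each), so the share hardly varied within a group. Within the 8 libraries of the Cep120 line it ran from 4.70% in a knockout to 67.4% in a control, and the 3 controls there differed widely among themselves, at 38.7, 24.3 and 67.4%.

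The division showed in the transcript records too. Hmga1-216 was at 17.6, 13.3 and 25.6 CPM in the Pkd1 knockouts and 143, 129 and 168 in the controls. Hmga1-203 had 0, 4.80 and 10.9 CPM against 71.6, 44.3 and 47.2. Both of these records of the chromosome 17 locus were thus far lower in the knockouts. In control 1 they had 2984 and 1499 reads of 14368 for the gene, and in knockout 1 187 and 0 of 2100. In both libraries most reads of the gene therefore lay outside these records, and all records listed for the gene did not add up to its count. One record, Hmga1-215, ran against them, with 13.6, 9.19 and 14.2 CPM in the knockouts and no reads in the controls.

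Other near-copies were also higher in the knockouts once genes outside the protein-coding class were tested. In a fit of all 14923 genes that passed the filter in any class, 3 were called (0.0201%). Besides Hmga1 these were 2 processed pseudogenes, both higher (0.0134%), Rnps1-ps and Atp6v0c-ps2. Their namesakes with introns are close neighbours of Pkd1, since Rnps1 starts 0.135 Mb and Atp6v0c 0.386 Mb before it on chromosome 17. Rnps1 encodes a splicing factor of the exon junction complex and Atp6v0c the proteolipid subunit of the vacuolar proton pump.

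In this fit CPM is taken over all gene classes. Rnps1-ps (chromosome 6, 7982541 to 7983383) had 101, 98.0 and 106 CPM in the knockouts and 45, 47.5 and 51.2 in the controls. It rose by a log2 fold change of 1.08 (SE 0.101), with an edgeR adjusted p of 0.00329. Rnps1 itself had 161, 159 and 181 against 190, 189 and 183 CPM, which is lower in every knockout, and did not pass. The copy took 38.5, 38.2 and 36.9% of the reads of this pair in the knockouts and 19.2, 20.1 and 21.8% in the controls. Of its 843 annotated bases 838 match Rnps1-201. The sum of this pair was 262, 257 and 287 CPM in the knockouts and 235, 237 and 235 in the controls. Unlike the sum of the Hmga1 pair, it did not overlap between the groups.

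Atp6v0c-ps2 (chromosome 6, 37806086 to 37806550) had 141, 135 and 125 CPM against 66.6, 74.6 and 69.95. It rose by a log2 fold change of 0.92 (SE 0.0975), with an edgeR adjusted p of 0.00465. Atp6v0c overlapped between the groups, at 389, 400 and 370 against 383, 440 and 408 CPM. The sum of this pair overlapped too, at 531, 535 and 495 against 450, 514 and 478 CPM. The copy matches Atp6v0c-201 at 464 of its 465 bases and took 26.7, 25.2 and 25.2% of the reads of the pair in the knockouts against 14.8, 14.5 and 14.6%. Another pair, picked after its values were seen, was Rps2, a ribosomal protein gene 0.168 Mb after the Pkd1 start, and Rps2-ps10. There the copy took 21.2, 23.6 and 23.1% in the knockouts and 12.8, 13.3 and 13.3% in the controls. The edgeR adjusted p of the copy was 0.0717. The sum of the Rps2 pair overlapped, at 987, 1003.9 and 1095.5 CPM against 1108.6, 962 and 1120.8. In all, 26 pseudogenes carry the name of a gene within 5 Mb of Pkd1 with the suffix -ps. Of these 10 were tested and 5 had an unadjusted p under 0.05, against 5.05% of all genes in that fit. This count was not planned. The 5 include Rnps1-ps, Atp6v0c-ps2 and Rps2-ps10, described above, so the count gives no separate support. These 5 are not independent, since Rps2-ps10, Rps2-ps13 and Rps2-ps6 among them are all named after Rps2. Other tested copies did not move, such as Srsf3-ps and Rps10-ps2 at log2 fold changes of 0.007 and 0.067.

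**Figure D2:**
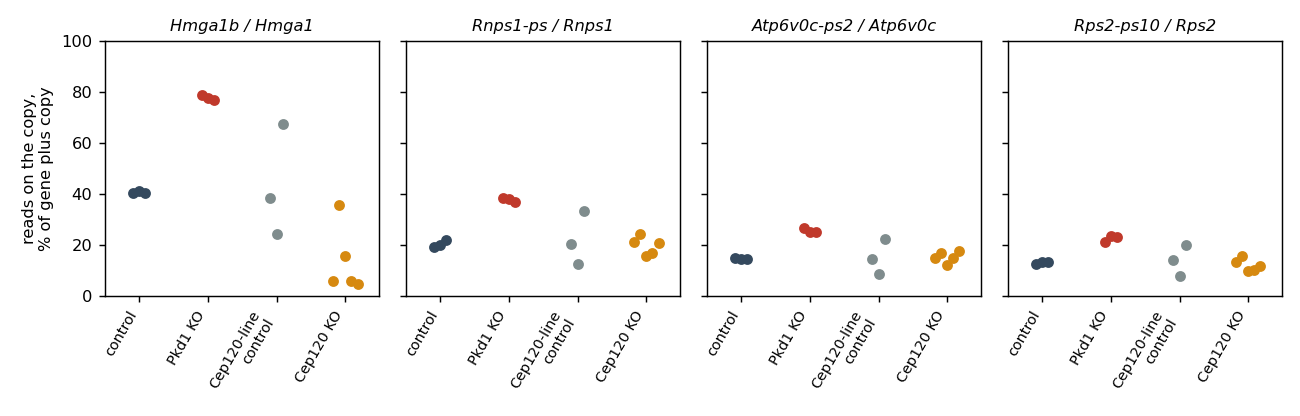
Reads on the copy as a percentage of reads on gene plus copy, for the Hmga1, Rnps1, Atp6v0c and Rps2 pairs, 1 point per library, in the Pkd1-line controls (n = 3), Pkd1 KO (n = 3), Cep120-line controls (n = 3) and Cep120 KO (n = 5). In each panel the 3 Pkd1 KO points lie together above the 3 Pkd1-line controls, and the Cep120-line controls are spread, for Rnps1-ps from 12.6 to 33.3%.

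In every one of these 4 pairs the same Cep120-line control, number 3, had the highest copy share among the 3 Cep120-line controls, and control 2 the lowest. For Rnps1-ps those controls stood at 20.4, 12.6 and 33.3%, and for Atp6v0c-ps2 at 14.5, 8.65 and 22.3%. The Pkd1 knockouts were above all of them. The sources used here do not say how the authors' counting treated reads that match several places, and its part in these shares was not tested.

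Pkd1 lies on chromosome 17, and knockout and control animals differ in how many targeted copies of that chromosome they carry. Genes beside Pkd1 were therefore counted apart. Within 5 Mb of its start 172 protein-coding genes were tested, and 23 of them had an unadjusted p under 0.05 (13.4%), 13 higher and 10 lower. On the remainder of chromosome 17 it was 30 of 442 (6.79%), and on all other chromosomes 606 of 11937 (5.08%). With all 14 libraries in the fit, 2 genes near Pkd1 had a p under 0.05, which is 1.16% against 1.23% of all genes in that fit, so low p-values were fewer everywhere and the excess near Pkd1 was not seen. Taken singly, the 19 other chromosomes with at least 20 tested genes ran from 3.49 to 6.53%.

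The excess near Pkd1 was steeper at a stricter limit. At an unadjusted p under 0.01, a limit added after the values were seen, there were 12 of 172 genes near Pkd1 (6.98%) against 1.17% of all genes and 1.05% on the other chromosomes. The groups did not overlap for 36 of the 172 (20.9%) against 11.3%. In distance bands, also added later, the share at p under 0.05 was 8.79% between 5 and 10 Mb, 11.8% between 10 and 15 Mb, 7.92% between 15 and 25 Mb, and 2.42% (4 of 165) beyond. Chromosome 17 held 6 of the 10 genes with the lowest p, while 4.9% of tested genes lie there. The median log2 fold change near Pkd1 was 0.01, with low p-values in both directions. The effect of losing Pkd1 and the effect of the linked stretch of chromosome cannot be told apart in this design.

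**Figure D3:**
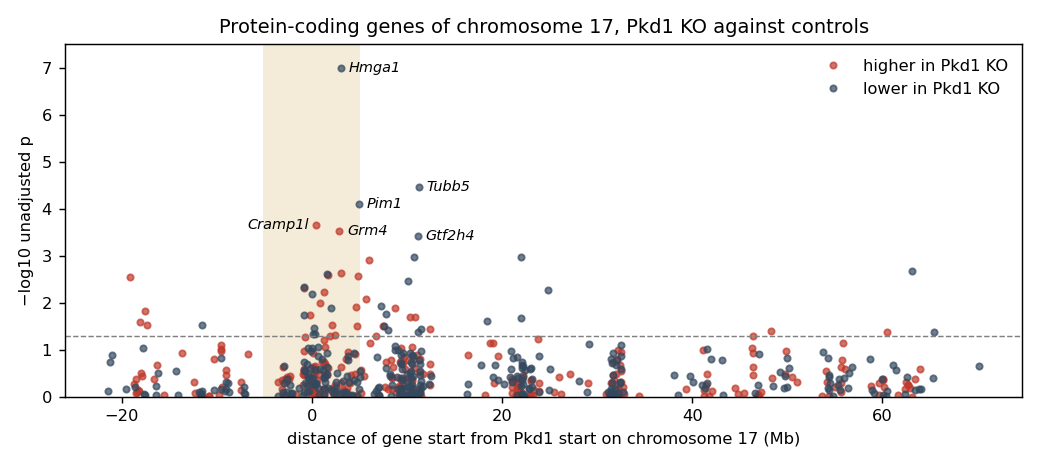
Each point is a tested protein-coding gene of chromosome 17, placed by the distance of its start from the Pkd1 start (Mb) and by −log10 of its unadjusted p; the shaded band is 5 Mb to each side, the dashed line is the unadjusted limit of 0.05, and colour gives the direction. Hmga1 stands alone at the top, and Pim1, Cramp1l and Grm4 lie in the band, with Tubb5 and Gtf2h4 about 11 Mb from Pkd1.

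Of the named genes of this neighbourhood only Hmga1 passed in edgeR, while DESeq2 also called Pim1, Cramp1l and Grm4 (adjusted p 0.00287, 0.00771 and 0.0133). Pim1, a serine/threonine kinase that promotes survival, had 33.2, 32.3 and 34.9 CPM in the knockouts and 50.9, 50.8 and 58.8 in the controls (log2 fold change −0.68, SE 0.120, edgeR adjusted p 0.252). Cramp1l, a chromatin regulator, had 62.5, 76.5 and 62.5 against 39.996, 42.5 and 47.7 (0.63, SE 0.125, edgeR adjusted p 0.405). Grm4, a metabotropic glutamate receptor, had 20.4, 19.7 and 15.7 against 10.3, 9.90 and 5.97. Groups did not overlap for any of these 3, but they were picked by a rule that admits only genes without overlap. Nudt3, an inositol pyrophosphate phosphatase, and Fam234a, picked by the same rule, were higher by 0.39 and 0.42 in log2 fold change.

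Tsc2, the tumour suppressor that restrains mTOR, is the immediate neighbour of Pkd1. It had 17.7, 18.9 and 18.2 CPM in the knockouts and 28.9, 22.8 and 25.2 in the controls, a log2 fold change of −0.49 (SE 0.151, edgeR unadjusted p 0.00668, adjusted p 0.746). The 3 knockouts were nearly equal and all below the controls. Because of the shared bases noted above and the unstranded kit, some of these reads could belong to Pkd1, and how many was not tested.

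Farther along the same chromosome, other genes were named by that rule, so their lack of overlap was fixed by the choice. DESeq2 called Tubb5, Gtf2h4 and Glo1 (adjusted p 0.00626, 0.03 and 0.0275), and edgeR none of them. Tubb5, a beta-tubulin 11.3 Mb away, had 4023, 4048 and 4583 CPM against 5417, 5612 and 5994 (log2 fold change −0.43, SE 0.0697, edgeR adjusted p 0.146). Gtf2h4, a subunit of the transcription and repair factor TFIIH, had 45.2, 47.1 and 41.3 against 61.0, 64.0 and 68.5. H2-D1, an MHC class I gene, was lower by 0.56 in log2 fold change and Glo1, which detoxifies methylglyoxal, higher by 0.43. Ptk7, a receptor of planar cell polarity 22.0 Mb away, had 31.8, 30.8 and 33.3 against 58.3, 46.9 and 40.5.

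**Figure D4:**
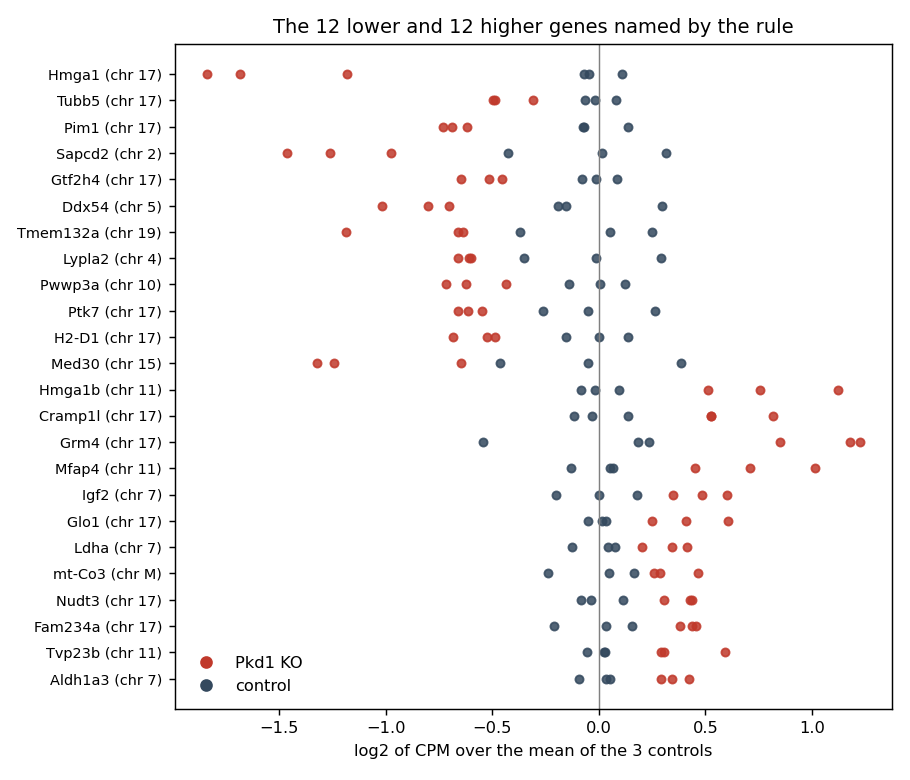
The 12 lower and 12 higher genes with the smallest p among genes of at least 5 CPM and non-overlapping groups, as log2 of CPM over the mean of the 3 controls, 1 point per library, with the chromosome beside each name. Of the 24, 11 lie on chromosome 17, and Hmga1 alone passed the adjusted threshold in edgeR, against 12 of them in DESeq2.

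Elsewhere in the genome no protein-coding gene was called by edgeR in the main fit. DESeq2 called 5 of the named genes there: Hmga1b, Sapcd2, Tmem132a, Igf2 and Mfap4, the last 4 at adjusted p 0.0133, 0.0333, 0.0333 and 0.0254. Among the lower genes, Sapcd2, which takes part in orienting the mitotic spindle, had 6.79, 4.84 and 5.57 CPM against 16.6, 13.51 and 9.94 (log2 fold change −1.23, SE 0.245, edgeR adjusted p 0.405). Ddx54, an RNA helicase, had 13.6, 12.7 and 10.9 against 27.1, 19.9 and 19.4, and Med30, a Mediator subunit, 6.98, 7.36 and 11.1 against 22.8, 16.8 and 12.6. For these 3 genes the controls were spread more than the knockouts, and the control nearest the knockouts was always number 3. Tmem132a, Lypla2, which removes palmitate from proteins, and Pwwp3a were lower by 0.59 to 0.82 in log2 fold change.

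Among the higher genes, Igf2, a fetal growth factor, had 146, 174 and 160 CPM in the knockouts and 130, 99.6 and 115 in the controls (log2 fold change 0.48, SE 0.116, edgeR adjusted p 0.731). Aldh1a3, which makes retinoic acid in the ureteric bud, had 201, 191 and 184 against 156, 154 and 141 (0.35, SE 0.0954). Tvp23b was higher by 0.40. Mfap4, an extracellular matrix protein of stromal cells, had 35.5, 43.9 and 29.7 against 19.9, 22.5 and 22.8. Its groups did not overlap, as the naming rule required. The summed stroma markers overlapped, at 41.9, 105 and 4.02 CPM against 13.9, 28 and 57.7, and their part in Mfap4 was not tested.

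The 33 gene lists gave no member called by edgeR, while DESeq2 called Igf2. They held 573 tested genes, of which 38 had an unadjusted p under 0.05 (6.63%, against 5.25% of all genes) and 62 had groups that did not overlap (10.8%, against 11.4%). The lowest adjusted p of any member was 0.731. In bulk samples fewer cells of a type and less RNA per cell cannot be told apart, which applies to every list of cell type markers here.

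**Figure D5:**
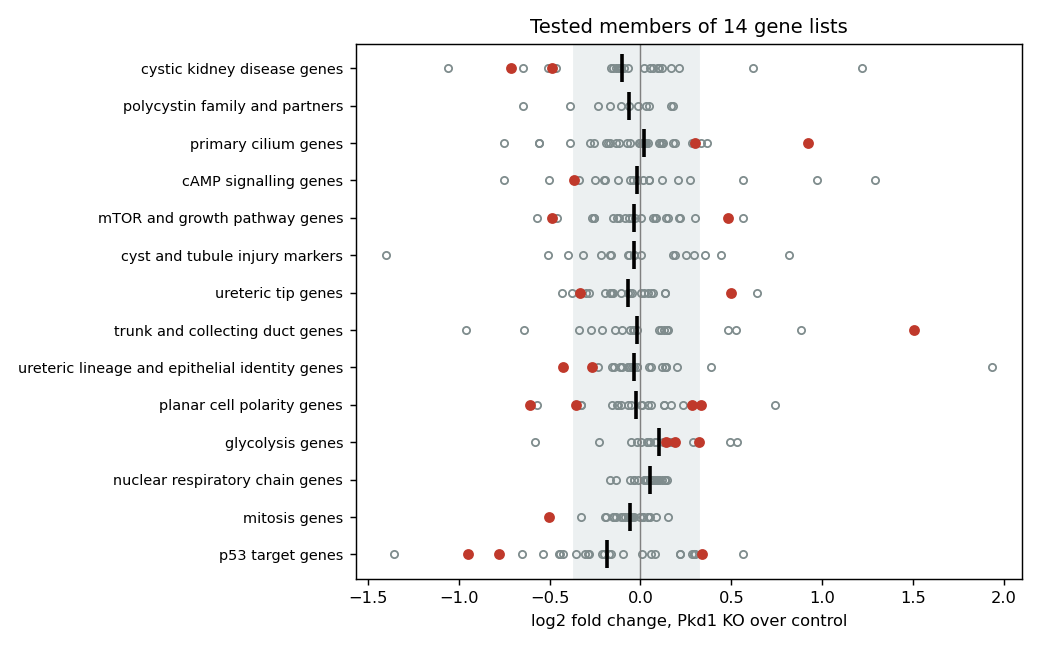
Log2 fold change (Pkd1 KO over control) of each tested member of 14 of the 33 lists. Filled points have an unadjusted p under 0.05, black bars are list medians, and the grey band is the middle 80% of all genes (−0.37 to 0.32); all 14 medians lie in the band, from −0.19 for p53 targets to 0.10 for glycolysis.

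Among genes mutated in cystic kidney disease, a list that includes Pkd1, more members were lower than higher without overlap. Of 26 tested, 2 had an unadjusted p under 0.05 (7.69%, against 5.25% of all genes), both lower, and 7 did not overlap, 6 of them lower (26.9%, against 11.4% of all genes); the median log2 fold change was −0.10. Tsc2, described above, had the smallest p of the list. Nek8, a ciliary kinase, had 5.19, 5.81 and 6.98 CPM against 8.55, 8.65 and 7.66, and Ganab, the glucosidase needed to mature polycystin-1, 143, 145 and 153 against 159, 161 and 173. Cys1, the cystin of the ciliary membrane, was the member higher without overlap, at 5.85, 3.87 and 4.02 against 3.01, 2.82 and 3.05.

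The partner of polycystin-1 overlapped between the groups. Pkd2, the channel subunit, had 10.4, 15.6 and 9.66 CPM in the knockouts and 13.4, 11.8 and 13.496 in the controls, a log2 fold change of −0.11 with a 95% interval of −0.57 to 0.35. Pkhd1, the gene of recessive polycystic disease, had 15.8, 10.96 and 19.1 against 16.5, 14.8 and 9.39. The highest library of each gene was a knockout. Of 19 polycystin family members and partners 11 were tested and Pkd1 was the only one without overlap; the paralogues Pkd1l1, Pkd1l2, Pkd1l3, Pkd2l1, Pkd2l2 and Pkdrej were too low to test. None of the tested partners reached an unadjusted p of 0.05.

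All 35 primary cilium genes of the list were tested, and 2 had an unadjusted p under 0.05 (5.71%, close to the 5.25% of all genes). These were Bbs1 of the BBSome (log2 fold change 0.92, SE 0.402) and B9d2 of the transition zone (0.30, SE 0.139), with positive values. Ift88, an intraflagellar transport protein needed to build cilia, had 11.3, 10.9 and 18.1 CPM against 16.8, 18.7 and 17.2, with knockout 3 among the controls. Of the Hedgehog pathway, whose signal passes through the cilium, none of 14 tested genes reached an unadjusted p of 0.05; its receptor Ptch1 had 29.8, 28.7 and 28.6 against 29.1, 21.6 and 17.8.

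Signalling genes linked to cyst growth showed single members rather than whole lists. Among 21 cAMP genes 1 had an unadjusted p under 0.05 (4.76%, below the 5.25% of all genes): Prkacb, a catalytic subunit of protein kinase A, at 16.7, 16.5 and 14.7 CPM against 22.1, 21.7 and 17.96 (log2 fold change −0.37, SE 0.160). The vasopressin receptor Avpr2, which raises cAMP in collecting ducts, had 9.24, 8.79 and 4.87 against 8.03, 10.97 and 9.99, with overlap. Among 24 mTOR and growth genes the 2 past that limit (8.33%) were Igf2 and Tsc2, described above. Of 19 tested cyst and injury markers none was; Havcr1, the injury marker KIM-1, was at 0.189, 1.59 and 0.212 against 1.72, 2.13 and 1.87, from few reads.

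Planar cell polarity, which aligns cell division along the tubule, had 4 of 22 tested genes at an unadjusted p under 0.05 (18.2%, against 5.25% of all genes), 2 in each direction. Ptk7 and the receptor Fzd6 (20.1, 22.4 and 19.96 CPM against 26.5, 28.4 and 25.1) were lower. Vangl2, a core membrane component, was higher at 37.0, 37.3 and 39.8 against 32.4, 31.2 and 30.1, and so was Dvl3 at 42.1, 40.3 and 37.3 against 35.9, 32.5 and 26.7. The list median was −0.03. Among junction and polarity genes Scrib, a basolateral polarity scaffold, had 5.09, 5.46 and 3.38 against 8.51, 7.40 and 6.98.

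Genes that mark the ureteric bud as such had overlapping sums. The summed ureteric and epithelial identity genes were 4292 to 4574 CPM in the knockouts and 4355 to 4458 in the controls. Epcam, the epithelial adhesion molecule, was the member with the smallest p, at 141, 160 and 178 against 237, 202 and 205 (log2 fold change −0.43, SE 0.112, edgeR unadjusted p 0.00217, adjusted p 0.731); it lies on chromosome 17 too, but 63.1 Mb from Pkd1. Hoxb7, whose promoter drives the Cre transgene, had 57.0, 54.8 and 65.6 against 75.7, 75.0 and 62.5, with overlap.

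No tip gene passed the adjusted threshold, and the median was −0.07 over 23 tested. The GDNF co-receptor Gfra1 had 312, 286 and 263 CPM against 364, 293 and 306. Etv4, a transcription factor downstream of Ret, had 93.3, 98.7 and 96.5 against 129, 98.3 and 136, where control 2 lay with the knockouts (log2 fold change −0.33, SE 0.120, edgeR unadjusted p 0.0161). Cited1 was higher at 33.0, 34.1 and 39.8 against 20.9, 29.8 and 25.2 (0.50, SE 0.156, unadjusted p 0.00732). Cited1 also marks nephron progenitors, and the summed markers of those cells were 56.1, 72.3 and 61.4 CPM in the knockouts against 37.0, 47.2 and 47.5, of which Cited1 itself is a large share. An exact permutation test of that sum gave p = 0.1, the smallest that 3 against 3 allow, and 0.77 adjusted over 11 sums. Six2, their defining marker, was at most 1.55 CPM, and the part of such cells in the Cited1 value was not tested.

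Trunk and collecting duct genes had a median of −0.02 over 21 tested. Calb1, the calbindin of the maturing duct, had 1499.9, 1709 and 1772 CPM against 1974, 1780 and 1731. Foxi1, the master regulator of intercalated cells, was at 2.73, 2.01 and 2.89 against 1.34, 1.06 and 0.274 (log2 fold change 1.50, SE 0.618, edgeR unadjusted p 0.0302), a separation at very low level. Its target Atp6v1b1 had no reads in any of the 6 libraries.

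Among the metabolic lists, glycolysis had members higher without overlap and none lower. All 20 genes were tested, and 6 did not overlap (30%, against 11.4% of all genes), all higher in the knockouts (5.2% of all genes were). Of these 3 had an unadjusted p under 0.05 (15%, against 5.25% of all genes, and 2.28% for higher). The median log2 fold change was 0.10. Ldha, which turns pyruvate into lactate, had 2976, 3280 and 3443 CPM against 2663, 2724 and 2368 (0.32, SE 0.0794, edgeR adjusted p 0.731). Aldoa had 2417, 2710 and 2915 against 2316, 2411 and 2334, and Pkm 5523, 5216 and 5285 against 5064, 4524 and 4945. These are differences of 0.14 to 0.32 on the log2 scale. Other members, Slc2a1, Slc16a3 and Pdk1 among them, overlapped between the groups.

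Mitochondrially encoded genes were higher in all 13 cases, by 0.04 to 0.44 in log2 fold change, and 5 had an unadjusted p under 0.05 (38.5%, against 5.25% of all genes). Of these mt-Co3, a subunit of cytochrome oxidase, had 12928, 14911 and 13182 CPM against 12104, 11156 and 9168 (0.34, SE 0.0871). The groups did not overlap for 2 of the 13, mt-Co3 and mt-Atp6 (15.4%, against 11.4% of all genes), and overlapped for the rest. Control 3 was the lowest library for every one of the 13, so these genes moved together and are not independent. The share of all counts on mitochondrial genes, a common measure of library quality, was 5.01, 4.84 and 5.15% in the knockouts and 4.95, 4.36 and 3.36% in the controls. It was lowest in control 3. Most of this share comes from the 13 genes themselves, so it is no separate measure, and the part of library quality was not tested. Nuclear genes of the respiratory chain had a median of 0.05, and none of 26 reached an unadjusted p of 0.05.

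Proliferation genes gave few separations. Of 25 mitosis genes 1 had an unadjusted p under 0.05 (4%, below the 5.25% of all genes): Cdc20, the activator of the anaphase-promoting complex, at 61.7, 53.9 and 43.4 CPM against 84.1, 78.1 and 62.8 (log2 fold change −0.50, SE 0.146). None of 29 DNA replication genes did. Targets of p53 had the lowest median of these lists, −0.19 over 28 tested. Btg2 was higher and Apaf1 and Ercc5 lower at an unadjusted p under 0.05 (10.7%, against 5.25% of all genes). For 4 of the 28 the groups did not overlap (14.3%, against 11.4% of all genes). Cdkn1a, the p53 target that halts the cell cycle, had 72.1, 45.1 and 47.2 against 37.3, 51.6 and 44.4, with overlap. Of 19 tested immediate early and heat shock genes 2 had an unadjusted p under 0.05 (10.5%, against 5.25% of all genes). The groups did not overlap for 3 of the 19 (15.8%, against 11.4% of all genes), and all of these were higher. The immediate early gene Fos had 29.1, 28.2 and 30.7 against 23.4, 14.9 and 19.2 (0.62, SE 0.171). Jun, its dimer partner, overlapped at 23.5, 21.3 and 29.5 against 47.6, 24.7 and 20.6.

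Fibrotic and inflammatory genes gave no separation: 14 were tested, none had an unadjusted p under 0.05 and none had groups that did not overlap. Among 26 tested matrix and integrin genes 3 were lower at that limit (11.5%, against 2.97% of all genes), led by Lamb2, a laminin chain, at 3.11, 3.37 and 1.90 CPM against 5.07, 4.12 and 6.20. Cyclin D1 (Ccnd1), a Wnt target, had 127, 141 and 139 against 193, 153 and 151, and Tead2, a partner of YAP, 63.6, 61.9 and 54.1 against 74.7, 69.1 and 71.5.

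Some markers of other cells, Acta2 and Tubb3 among them, moved with single libraries. Acta2 of smooth muscle was at 13.3 CPM in knockout 2 and at most 1.62 in the rest. Tubb3 of neurons was at 233 in control 2 and 25.7 to 34.7 in the rest, and its log2 fold change of −1.77 became −0.17 without that library. Laptm5 of leukocytes had 2.83, 4.65 and 1.76 against 0.717, 1.39 and 2.46, with overlap. The Y-linked Ddx3y had 30.5, 22.2 and 31.2 against 11.99, 18.4 and 24.9, in the same sense as the lower Xist of the knockouts.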

How the data were processed

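Ureteric bud cells of 14 mouse kidney samples were profiled by bulk RNA-seq, and 6 libraries were used for the tests. The authors deposited expected counts per gene and per transcript without normalization, TPM values, and log2 CPM values with a small constant, per the file headers. Between 89.8 and 91.6% of the gene counts were whole, and all were rounded. The submitters' processing notes name DRAGEN and mm9, with no version or role; the annotation and the handling of reads that match several places were not given. Coordinates and transcript sequences are from GENCODE M21 (GRCm38), joined by Ensembl identifier, which gave a position for 12542 of the 12552 tested genes. Of 55774 lines, 287 repeated a gene and were dropped.

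In R 4.3.3, edgeR 4.0.16 (filterByExpr, minimum count 10; TMM; quasi-likelihood test; Benjamini-Hochberg) was fitted to the 3 Pkd1 KO and 3 control libraries over protein-coding genes, called at an adjusted p under 0.05. The script was tested on simulated counts. Genes are named by a rule: Pkd1; in each direction the 12 smallest p with a mean of at least 5 CPM and no overlap; from each of 33 lists the member with the smallest p; and the 3 smallest p within 5 Mb of Pkd1. Other members named were chosen after their values were seen, for their role; some list members are not reported here. The genes and lists were chosen with earlier results of these data known. Replicate numbers recur in both groups, but the deviations of same-numbered libraries correlated at −0.0884, −0.0175 and −0.205, so they were not treated as pairs. No 2 libraries agreed within sampling noise (chi-square per degree of freedom 11.1 or more). Alternatives were DESeq2 1.42.0, limma 3.58.1, other filters, scalings and sample sets. Alignments used Biopython 1.88. Counts carry no molecular identifiers, so amplification copies remain, and depth limits genes such as Pkd1, at 29.2 to 98.2 reads a library.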

Additional observations from a re-analysis of the deposited data

Results flagged for a closer look

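One transcript record drew attention outside the gene-level comparison. Hmga1-215 was assigned 143.75, 237.35 and 200.81 reads in Pkd1 knockouts 1, 2 and 3 and 0 in each of the 3 Pkd1-line controls. The records Hmga1-216, Hmga1-203, Hmga1-217 and Hmga1-206 were lower in the knockouts. Among the 8 libraries of the Cep120 line Hmga1-215 had 211.86 reads in control 3 and 0 in the other 7. No test was made of these transcript estimates.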

How the results depend on the processing

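The number of genes called was 1, and it was 2 with no low-count filter, 13 with DESeq2 (Hmga1, Hmga1b, Tubb5, Pim1, Cramp1l, Grm4, Igf2, Glo1, Mfap4, Gtf2h4, Sapcd2, Tmem132a and Gm49395), 3 with limma-voom and quality weights, 3 with all gene classes (Hmga1 and the pseudogenes Rnps1-ps and Atp6v0c-ps2), 0 with all 14 libraries in the fit (169 genes at an unadjusted p under 0.05), 0 with the 6 controls of both lines pooled (496 genes), and 0 with Hmga1 and Hmga1b summed. Leaving out 1 library gave 0 to 2. RLE scaling, a minimum count of 30 and limma-trend on the deposited log2 values each gave 1. The 23 genes near Pkd1 at an unadjusted p under 0.05 became 2 with all 14 libraries (1.16%, against 1.23% of all genes) and 17 to 25 otherwise; the cause was not tested. Pkd1 stayed lower and short of the threshold throughout (log2 fold change −0.75 to −0.51). With a replicate block the number called was 1 (Hmga1, edgeR adjusted p 0.0285), 21 genes near Pkd1 had a p under 0.05 and Pkd1 was at −0.63, so the block changed no call. Of the named genes 2 changed direction: Laptm5 was at −0.65 with the 6 controls pooled, and Acta2 at −0.53 without knockout 2, where leaving out other single libraries gave up to 3.40. On the deposited log2 scale the median gene stood at −0.05, and genes at an unadjusted p under 0.05 were split 170 higher and 608 lower, against 286 and 373.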
